A study of Mus musculus with 32 samples.

Results

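The 2 time courses of this series, named Ex5 and Ex4, were both sampled at 4 late minutes, 345, 365, 385 and 405, and the 8 libraries of these minutes, out of 32 in all, were compared here, Ex5 with Ex4, pair by pair at the same minute. The members were taken from the sample labels, with 4 Ex5 libraries and 4 Ex4 libraries. Both courses used mouse epiblast stem cells of the line labelled AES0204 based Hes7-reporter, which carries a luciferase reporter of Hes7, turned into presomitic mesoderm (PSM) in culture, and nothing in the labels says that the courses were treated differently. In both, cells spent 30 hours with CHIR99021 at 10 µM, bFGF, SB431542 and LDN193189, and then received the same medium with CHIR99021 at 1 µM. CHIR99021 inhibits the kinase GSK3 and so switches on Wnt signalling, bFGF is a fibroblast growth factor, and SB431542 and LDN193189 block the receptors of TGF-β/activin and of BMP. Each library came from its own dish, frozen at its minute. Each course is a single culture run of 1 line, so the p-values below measure how far the courses lie apart beyond the spread between dishes, and they do not measure how Ex5-like and Ex4-like cultures would vary if repeated.

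The PSM is the unsegmented tissue at the tail end of the embryo from which somites, the forerunners of vertebrae and muscle, bud off in a regular rhythm. The rhythm is set by the segmentation clock, in which the repressor Hes7 shuts off its own gene with a delay, and Notch, FGF and Wnt signalling are coupled to this loop. Cells enter the PSM from a tailbud progenitor pool that expresses T and Nkx1-2, and switch on Tbx6 and Msgn1 as they become mesoderm.

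Library totals were 16132024 to 21821542 counts in Ex5 and 19257945 to 23975811 counts in Ex4. Levels are given as CPM, the count of a gene scaled to the same library total in every sample. The fixed PSM markers summed to 3490 to 3820 CPM in Ex5 and 3160 to 3450 CPM in Ex4, and 0 of the 9 lay under 1 CPM. Of 5 somite markers 4 lay under 1 CPM, among them Mesp2, the factor that places the somite border, at 0 to 0.188 CPM in Ex5 and 0 to 0.207 CPM in Ex4. The liver and yolk sac gene Ttr and the globin gene Hbb-bs were at 0 in all 8 libraries, and endoderm markers summed to 40.2 to 45.2 CPM in Ex5 and 44.1 to 52.7 CPM in Ex4, nearly all of it Cxcr4. The first principal component took up 55.9% of the variation and separated the courses. The second took up 13.3% and set the Ex4 library of 405 min apart (-14.9, where the others lay between -1.8 and 7.91). Counts without this minute are therefore given beside the main ones. Across genes, the deviation of that library from its course mean ran with GC content (Spearman -0.492) and with transcript length (0.405). In the other Ex4 libraries, whose deviations from the same mean are not independent of it, the values for GC content were 0.196, 0.257 and 0.337 and those for length -0.301, -0.458 and 0.146. In Ex5 they ran from -0.21 to 0.109 for GC content and from -0.117 to 0.048 for length. Libraries of the same minute differed between the courses by a median of 0.117, 0.116, 0.134 and 0.158 (log2 units over genes, at 345 to 405 min), against 0.0717 to 0.0855 between Ex5 libraries and 0.0629 to 0.132 between Ex4 libraries.

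Of 11754 genes tested, 2686 differed between the courses (22.9%), 1320 of them higher in Ex5 (11.2%) and 1366 lower in Ex5 (11.6%). The test was edgeR's quasi-likelihood F test with the minute as a block, and a gene was called at a Benjamini-Hochberg adjusted p under 0.05. At an unadjusted p under 0.05 there were 4178 genes. Most differences were small. The median fold was 1.21 among genes higher in Ex5 and 1.24 among genes lower in Ex5, and 37 higher and 103 lower genes reached 2-fold. In 3097 of all tested genes (26.3%) the 4 Ex5 values and the 4 Ex4 values did not overlap, beside a called share of 22.9%. Of the called genes, which were selected for a difference, 2300 did not overlap, and in 2612 the sign was the same at all 4 minutes. Past 4-fold stood 4 genes higher in Ex5 and 6 lower in Ex5. The higher ones were Mt1, Mt2 and, named after their values were seen, the cadherin gene Cdh23 (log2 2.11) and Cox4i2 (log2 2.01), an isoform of a cytochrome oxidase subunit, at 1.64 and 1.55 CPM over the 8 libraries. The lower ones were Hes3 (-3.33), Tfap2c (-2.11), Hoxa9 (-2.03) and, also named after their values were seen, Rprm (-2.13), Sec14l5 (-2.12) and Bmp5 (-2.05). A gene was tested if it reached 1 CPM in at least 4 of the 8 libraries. Hes3 and Tfap2c lay under 1 CPM in every Ex5 library and were tested only through their Ex4 values. Hoxa9, at 0.972, 1.25, 0.794 and 0.806 CPM in Ex5, also met the filter through its Ex4 values. Cdh23 and Cox4i2, with such low means and more than 4-fold higher in Ex5, met it mainly through their Ex5 values. The place of these genes among the extremes therefore leans on the filter. The same may hold for Rprm, Sec14l5 and Bmp5, whose levels are not given here. Without the 405 min pair 1915 genes were higher and 1800 lower, without the 385 min pair 597 and 694, and without the 345 min pair 779 and 846.

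**Figure D1:**
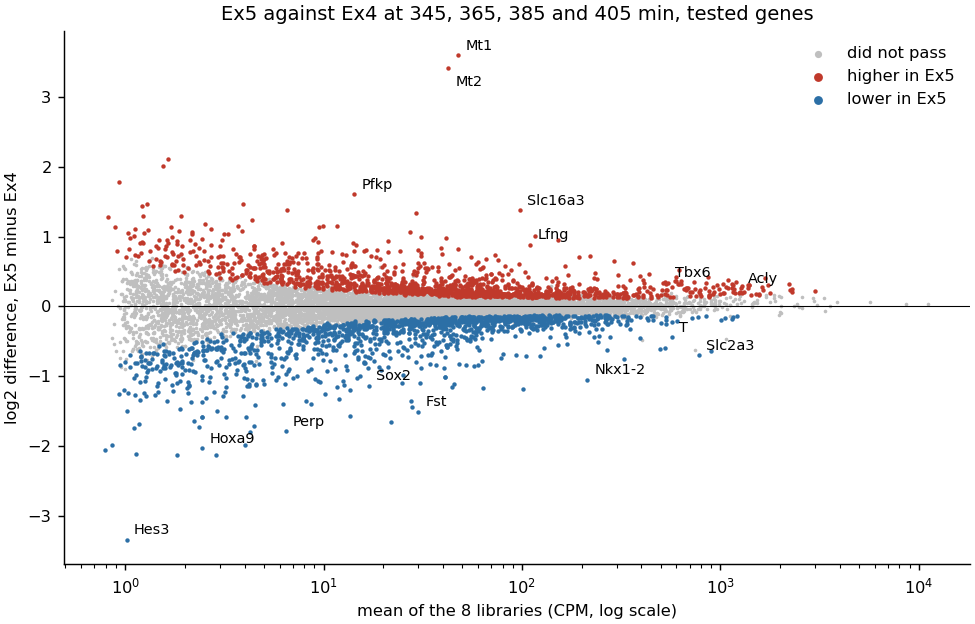
Each point is 1 of the 11754 tested genes, by its mean over the 8 libraries (CPM, log scale) and its log2 difference, Ex5 minus Ex4, where red and blue genes passed the test. Mt1 and Mt2 stand alone at the top at log2 3.59 and 3.41, and Hes3 at the bottom at -3.33. Hes3 was under 1 CPM in every Ex5 library and met the expression filter through Ex4 alone.

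The clock gene Hes7 and its reporter were higher in Ex5 through the window, by an amount that differed between minutes. Hes7 (chr11:69120404-69124055 on the plus strand, GRCm38) read 331, 343, 433 and 309 CPM in Ex5 at 345, 365, 385 and 405 min, against 276, 252, 207 and 170 CPM in Ex4. The Ex5 values went up to 385 min while the Ex4 values went down from the first minute on, and the groups did not overlap. The difference was 0.26 and 0.44 (log2) at the first and second minute and 1.07 and 0.87 at the third and last, on average 0.66 ± 0.14 (SE, adjusted p = 0.0251). This call was lost without the 365 min pair (0.73, adjusted p = 0.0968), without the 405 min pair (0.59, 0.222), with no expression filter (0.12) and with a correction for GC content and length (0.0757). Luciferase mRNA from the reporter read 24.3, 29.5, 27.0 and 28.6 CPM in Ex5 and 20.1, 20.9, 17.8 and 14.8 CPM in Ex4 (log2 0.57 ± 0.09, adjusted p = 0.00098), and its groups did not overlap either.

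Among Notch genes, Lfng, whose enzyme modifies Notch receptors and cycles with the clock, read 137, 157, 160 and 110 CPM in Ex5 and 106, 101, 61.9 and 47.5 CPM in Ex4 (log2 0.88 ± 0.18, adjusted p = 0.0211). Like the call of Hes7, that of Lfng was lost without the 365 min pair (adjusted p = 0.133) or the 405 min pair (0.19), with no expression filter (0.107) and with the GC and length correction (0.0645). It was also lost when libraries were thinned to equal depth (0.0538). Nrarp, a feedback inhibitor that Notch induces, read 251, 275, 311 and 262 CPM in Ex5 and 176, 180, 158 and 150 CPM in Ex4 (0.72 ± 0.07, adjusted p = 2.46e-05). Every Nrarp value in Ex5 was above every value in Ex4. Hes1, a repressor that Notch targets and that runs early in the cycle, read 33.1, 25.6, 22.8 and 11.3 CPM in Ex5 and 18.9, 13.9, 11.6 and 17.2 CPM in Ex4. Here the sign of the difference turned at 405 min (0.94 at 385 min, -0.58 at 405 min), and the average of 0.56 ± 0.27 did not pass (adjusted p = 0.199), but did without that pair (0.88, 7.15e-09). For the related repressor Hes5 the gap closed at 405 min without a clear turn (1.15 at 385 min, -0.07 at 405 min). Hes5 read 39.7, 36.1, 30.9 and 17.3 CPM in Ex5 and 21.4, 17.0, 13.6 and 18.1 CPM in Ex4 (0.80 ± 0.20, adjusted p = 0.035). The Hes5 call was lost without the 345 min pair (adjusted p = 0.156) or the 365 min pair (0.19), with no filter (0.162), with the GC and length correction (0.193) and after thinning (0.0721). Its groups overlapped, since the Ex5 value at 405 min lay among the Ex4 values.

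Over the whole Notch list 11 of 25 tested members were higher in Ex5 and 2 lower (median 0.09, against -0.002 over all genes), and 7 were higher without the 365 min pair. Over all tested genes 11.2% were higher and 11.6% lower, the shares to set beside this and every later list count. List counts without a pair also move with the calls over all genes, which were 993 higher and 1066 lower without the 365 min pair. The ligands Dll1 (996 CPM in Ex5 and 745 CPM in Ex4, log2 0.41) and Dll3 (592 CPM in Ex5 and 464 CPM in Ex4, 0.35) were higher, as were the receptor Notch1 (351 CPM in Ex5 and 257 CPM in Ex4, 0.45) and the repressor Hey2 (9.63 CPM in Ex5 and 5.95 CPM in Ex4, 0.70). The glycosyltransferase Rfng (-0.25) and the coactivator Maml2 (-0.36) were lower. The receptors Notch2 (-0.07, adjusted p = 0.586) and Notch3 (-0.08, 0.318) and the nuclear effector Rbpj (0.03, 0.699) did not pass. Per1, a circadian repressor, read 97.7, 113, 114 and 92.1 CPM in Ex5 and 86.4, 78.1, 69.2 and 57.5 CPM in Ex4 (0.52 ± 0.08, adjusted p = 0.000943), though not without the 405 min pair (0.0695). The circadian list had 6 of 15 higher and 3 lower, with the activator Arntl lower (-0.50 ± 0.13, adjusted p = 0.0131). The Arntl call was lost without the 345 min pair (0.0794) or the 385 min pair (0.0903).

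**Figure D2:**
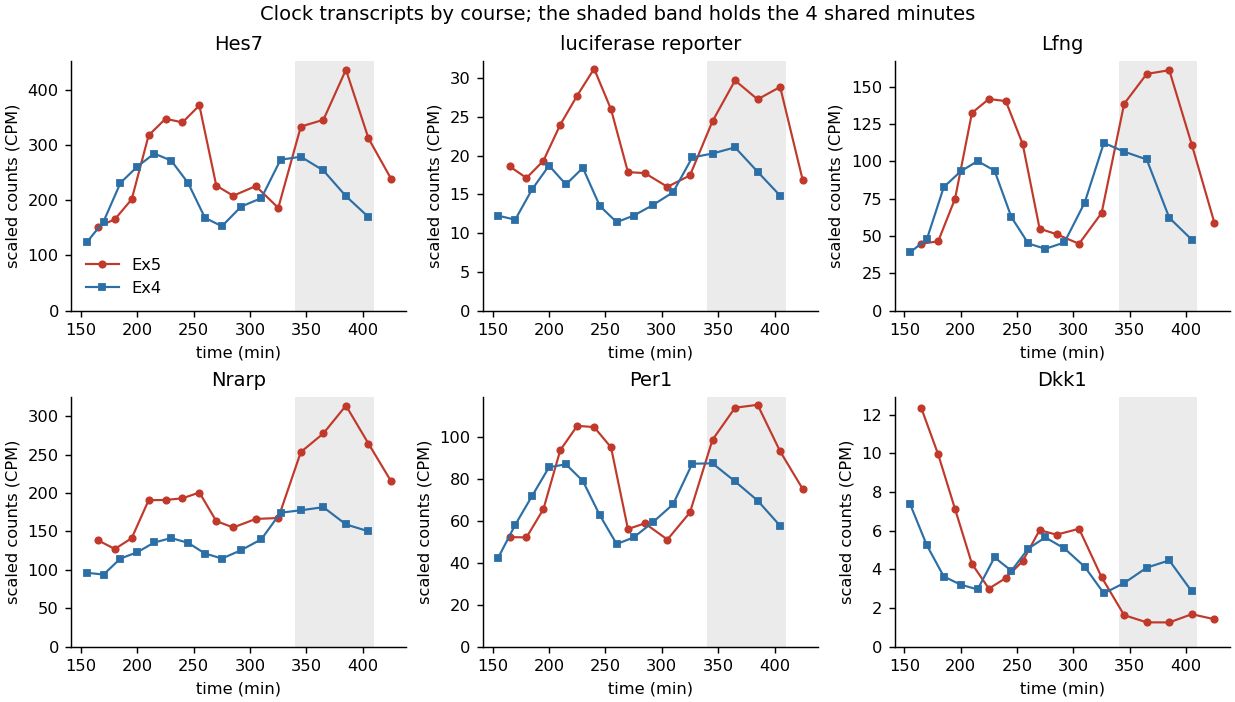
Scaled counts (CPM, here scaled over all 32 libraries) of 6 transcripts against time in Ex5 (circles) and Ex4 (squares), with the 4 shared minutes shaded. Within the shaded band the Ex5 curves of Hes7 and Lfng reach their top at 385 min while the Ex4 curves are already falling, and Dkk1 lies lower in Ex5 at every shared minute.

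Wnt feedback genes were mostly lower in Ex5. Of 19 tested members 10 were lower and 4 higher (median -0.24). Dkk1, a secreted Wnt inhibitor that cycles out of step with Notch targets in the mouse tail, read 1.62, 1.25, 1.25 and 1.67 CPM in Ex5 and 3.27, 4.06, 4.45 and 2.86 CPM in Ex4 (log2 -1.31 ± 0.19, adjusted p = 0.000384), with no overlap. Notum, an extracellular enzyme that inactivates Wnt proteins, read 25.8, 26.2, 29.4 and 28.3 CPM in Ex5 and 54.7, 55.3, 58.7 and 51.0 CPM in Ex4 (-1.0 ± 0.06, adjusted p = 2.45e-07). Exons of Notum overlap the genes Notumos and Myadml2os on the other strand, and whether the authors' counting used strand is not given in the sources used here. Axin2, the scaffold of the β-catenin destruction complex and a direct Wnt target, read 207, 197, 200 and 181 CPM in Ex5 and 275, 271, 271 and 250 CPM in Ex4 (-0.44 ± 0.04, adjusted p = 6.09e-06). Every Axin2 value in Ex5 was under every value in Ex4. Rnf43 (-0.53), Apcdd1 (-0.51), Sp8 (-0.44), Sp5 (-0.27), Tnfrsf19 (-0.26) and Nkd1 (-0.24) were lower as well. The nuclear effector Lef1 (758 CPM in Ex5 and 653 CPM in Ex4, 0.21) and the inhibitor Nkd2 (23.5 CPM in Ex5 and 15.8 CPM in Ex4, 0.57) were higher, and Ccnd1 (-0.05, adjusted p = 0.449) and Tcf7 (-0.005, adjusted p = 0.952) did not pass.

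FGF signalling genes moved both ways or did not pass. Of 25 tested, 6 were higher, 3 lower and 16 did not pass (median -0.05), where 22.9% of all tested genes were called. Dusp6, the ERK phosphatase that reports FGF activity, read 263, 260, 256 and 242 CPM in Ex5 and 255, 241, 240 and 284 CPM in Ex4, a difference of 0.01 ± 0.05 (adjusted p = 0.96). The groups overlapped throughout. The ligands Fgf8 (-0.13, adjusted p = 0.0872) and Fgf4 (-0.15, 0.0734) did not pass either. Snai1, a repressor of epithelial genes, read 81.8, 82.7, 81.9 and 76.5 CPM in Ex5 and 54.8, 51.7, 47.9 and 47.9 CPM in Ex4 (0.68 ± 0.05, adjusted p = 1.22e-06). Dusp2, a nuclear phosphatase, averaged 8.08 CPM in Ex5 and 4.31 CPM in Ex4 (0.91 ± 0.10), while Etv4 (-0.32), a classical FGF target, was lower. The count of higher members was 3 without the 345 min pair or the 385 min pair. Of 18 immediate early genes, which respond quickly to stimulation, 7 were higher and 2 lower, with Egr1 at 72.8, 72.6, 66.4 and 62.0 CPM in Ex5 and 43.5, 40.9, 37.3 and 46.0 CPM in Ex4 (0.71 ± 0.07, adjusted p = 1.26e-05).

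Genes of the PSM list went both ways. Of 16 tested, 6 were higher in Ex5 (Hes7, Rspo3, Msgn1, Dll1, Dll3 and Tbx6), 6 lower (Cdx1, Nkx1-2, Evx1, Wnt3a, T and Cdx2) and 4 did not pass (Fgf8, Fgf4, Fgf17 and Cyp26a1). The call of Cdx1, at 0.827 CPM in Ex5 and 1.68 CPM in Ex4, was lost with DESeq2 (adjusted p = 0.0623), without the 345 min pair (0.0971) and without the 385 min pair (0.083). Tbx6, the T-box factor that commits cells to PSM, read 617, 602, 606 and 609 CPM in Ex5 and 480, 481, 482 and 477 CPM in Ex4 (log2 0.34 ± 0.04, adjusted p = 6.5e-05). Msgn1, another PSM factor, read 97.3, 85.7, 71.4 and 70.6 CPM in Ex5 and 59.1, 56.5, 61.6 and 57.4 CPM in Ex4 (0.46 ± 0.08, adjusted p = 0.00156), a call that the GC and length correction ended (0.33, 0.264). Both stood higher in Ex5 at all 4 minutes, Msgn1 with a gap that was largest at 345 min. T, or Brachyury, the T-box factor of the primitive streak and tailbud, read 478, 489, 502 and 469 CPM in Ex5 and 655, 645, 657 and 662 CPM in Ex4 (-0.44 ± 0.04, adjusted p = 1.41e-05). Nkx1-2, a homeobox gene of progenitors that can form spinal cord or mesoderm, read 134, 142, 146 and 135 CPM in Ex5 and 302, 291, 288 and 272 CPM in Ex4 (-1.05 ± 0.04, adjusted p = 2.02e-08). Its groups were far from overlapping, and its exons overlap Gm16764 on the other strand. Evx1, another posterior homeobox gene, averaged 93.6 CPM in Ex5 and 152 CPM in Ex4 (-0.70), and Wnt3a, the tailbud Wnt ligand, 124 CPM in Ex5 and 181 CPM in Ex4 (-0.55). In bulk RNA, fewer cells of a kind and less RNA per cell cannot be told apart.

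Epiblast genes that passed the test were lower in Ex5, while neural genes went both ways. Of 10 tested pluripotency and epiblast genes 6 were lower and 0 higher (median -0.29). Sox2, a factor of pluripotent and neural progenitor cells, read 10.4, 10.1, 11.1 and 10.7 CPM in Ex5 and 24.4, 22.8, 23.7 and 21.8 CPM in Ex4 (log2 -1.13 ± 0.07, adjusted p = 4.61e-07). Cdh1, the epithelial cadherin, averaged 30.5 CPM in Ex5 and 47.3 CPM in Ex4 (-0.63), and Pou5f1, the pluripotency factor Oct4, 27.5 CPM in Ex5 and 36.0 CPM in Ex4 (-0.39). The fixed epiblast markers summed to 66.0 to 73.8 CPM in Ex5 and 98 to 111 CPM in Ex4, with Nanog, Utf1 and Fgf5 under 1 CPM in all 8 libraries. Of 11 neural genes 7 were lower and 2 higher (median -0.74). Hes3, a Hes repressor of the early neural plate, read 0.0926, 0.188, 0.170 and 0.288 CPM in Ex5 and 2.19, 1.77, 2.07 and 1.36 CPM in Ex4 (-3.33 ± 0.33, adjusted p = 1.73e-05), the lowest log2 difference of all named genes, at a level of a few reads per Ex5 library. Sox3 (-0.74), Sox1 (-0.90), Tubb3 (-1.03) and Ncam1 (-0.78) were lower, while Irx3, a homeobox gene of neural and mesodermal tissue, was higher (38.1 CPM in Ex5 and 21.7 CPM in Ex4, 0.81 ± 0.08). Nes, which encodes the filament protein nestin and is the most abundant of the list, was slightly higher at 401 CPM in Ex5 and 366 CPM in Ex4 (0.14 ± 0.04, adjusted p = 0.0353), with overlapping groups. Of the lower ones Ncam1 was the most abundant (46.3 CPM in Ex5 and 79.4 CPM in Ex4). The fixed neural markers summed to 53.3 to 64.6 CPM in Ex5 and 40.1 to 49.5 CPM in Ex4, with Irx3 the largest term. Among surface ectoderm genes Tfap2c (-2.11), Krt18 (-1.02) and Krt8 (-0.90) were lower, at low levels (Krt8, the most abundant, averaged 7.98 CPM in Ex5 and 14.9 CPM in Ex4).

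Among Hox genes, which give body segments their position, most did not pass, as over all tested genes, of which 22.9% were called. Of 26 tested members 5 were lower in Ex5 and 2 higher, and 19 did not pass (median 0). The lower ones lie in the HoxA and HoxC clusters, where other members such as Hoxa5 (0.08, adjusted p = 0.631) and Hoxc4 (-0.07, 0.358) did not pass. Hoxa9 read 0.972, 1.25, 0.794 and 0.806 CPM in Ex5 and 3.68, 2.81, 4.03 and 5.23 CPM in Ex4 (log2 -2.03 ± 0.22, adjusted p = 3.16e-05). Hoxa7 read 14.4, 14.9, 14.9 and 15.8 CPM in Ex5 and 41.8, 37.3, 40.9 and 42.9 CPM in Ex4 (-1.44 ± 0.06, adjusted p = 2.02e-08), and its exons overlap the antisense gene Hoxaas3. Hoxc9 (-1.05), Hoxc8 (-0.85) and Hoxc6 (-0.47) were lower as well. In the HoxB cluster Hoxb1 (188 CPM in Ex5 and 163 CPM in Ex4, 0.20) and Hoxb2 (102 CPM in Ex5 and 78.5 CPM in Ex4, 0.37) were higher, while Hoxb8 (106 CPM in Ex5 and 104 CPM in Ex4, 0.02, adjusted p = 0.844) and Hoxb9 (204 CPM in Ex5 and 219 CPM in Ex4, -0.11, 0.0724) did not pass. Whether the clusters differ from each other was not tested.

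The largest difference of all concerned the metallothioneins, small cysteine-rich proteins that bind zinc and copper and whose genes are switched on by the zinc sensor MTF1. Mt1 read 97.1, 96.9, 85.0 and 72.7 CPM in Ex5 and 8.27, 8.78, 6.0 and 6.15 CPM in Ex4, 12.0-fold higher (log2 3.59 ± 0.07, adjusted p = 3.66e-12). Mt2, its neighbour on chromosome 8, read 90.1, 84.7, 73.9 and 62.9 CPM in Ex5 and 8.6, 9.08, 6.16 and 5.52 CPM in Ex4, 10.6-fold higher (3.41 ± 0.07, adjusted p = 4.99e-12). The lowest Ex5 value of either gene was several times the highest Ex4 value. The other genes of zinc handling did not share this. Slc30a1, the zinc exporter of the plasma membrane and another known MTF1 target, read 13.3, 12.0, 14.4 and 12.5 CPM in Ex5 and 18.2, 17.5, 16.3 and 16.6 CPM in Ex4, and so was lower (-0.40 ± 0.08, adjusted p = 0.00304). Mtf1 itself (19.1 CPM in Ex5 and 18.4 CPM in Ex4, 0.05, adjusted p = 0.648) and the zinc importer Slc39a10 (180 CPM in Ex5 and 175 CPM in Ex4, 0.05, 0.575) did not pass. Of 5 tested genes on the zinc list 2 were higher and 1 lower. Leaving out each minute in turn gave 3.52 to 3.64 for Mt1 and 3.36 to 3.48 for Mt2. Exons of Mt2 overlap Gm45774 on the other strand.

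Because the metallothioneins moved together, their promoters are shown, from RefSeq on GRCm38.p6, 250 bases before to 50 after each gene's start. Mt1 is chr8:94178839-94179138 and Mt2 is chr8:94172368-94172667, both on the plus strand, and the annotation used for positions here starts Mt2 at 94172664, at the end of its window. Capitals mark the core letters of the metal response element, TGCACNC or TGCGCNC on either strand.
Mt1: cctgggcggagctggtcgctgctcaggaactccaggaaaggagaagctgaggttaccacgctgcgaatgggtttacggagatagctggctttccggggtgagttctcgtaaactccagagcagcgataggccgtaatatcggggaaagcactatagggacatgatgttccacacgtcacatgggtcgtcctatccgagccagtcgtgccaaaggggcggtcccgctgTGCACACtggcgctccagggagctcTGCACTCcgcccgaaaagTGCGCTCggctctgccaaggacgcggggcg
Mt2: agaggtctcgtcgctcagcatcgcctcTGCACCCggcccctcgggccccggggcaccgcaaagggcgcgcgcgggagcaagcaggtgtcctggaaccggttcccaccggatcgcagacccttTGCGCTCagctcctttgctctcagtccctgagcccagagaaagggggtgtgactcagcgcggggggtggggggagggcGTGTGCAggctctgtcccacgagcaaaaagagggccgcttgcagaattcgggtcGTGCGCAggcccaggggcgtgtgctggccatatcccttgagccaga
The Mt1 window holds 3 matches, of which 1 lies wholly before the RefSeq start. The Mt2 window holds 4, of which 3 lie wholly before it. Of 32851 RefSeq windows 25.7% hold at least 1 match, 1.97% hold 3 or more and 0.517% hold 4 or more. The window of Slc30a1 (chr1:191906531-191906830) holds 2. A match is a run of letters and does not show that MTF1 binds there.

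Genes induced by low oxygen and genes of glycolysis were mostly higher in Ex5. Of 19 tested hypoxia-inducible genes 16 were higher and 0 lower (median 0.38). Plod2 (-0.01, adjusted p = 0.958), Kdm3a (0.05, 0.373) and Ndrg1 (0.07, 0.83) did not pass. Bnip3, a mitophagy receptor, read 61.9, 56.3, 47.7 and 53.8 CPM in Ex5 and 29.3, 25.3, 22.5 and 35.1 CPM in Ex4 (log2 0.98 ± 0.08, adjusted p = 9.8e-06). Pdk1, the kinase that keeps pyruvate out of mitochondria, read 45.7, 42.1, 37.4 and 38.7 CPM in Ex5 and 19.3, 18.9, 19.7 and 24.9 CPM in Ex4 (0.99 ± 0.09, adjusted p = 1.61e-05). Vegfa, the growth factor of blood vessels, read 51.8, 52.2, 51.4 and 44.2 CPM in Ex5 and 28.2, 26.2, 29.7 and 28.3 CPM in Ex4 (0.83 ± 0.06, adjusted p = 1.64e-06). None of these groups overlapped, and the 405 min library held the highest Ex4 value of Bnip3 and Pdk1. The oxygen sensors Egln1 (0.55) and Egln3 (0.61), the collagen hydroxylases P4ha1 (0.38) and P4ha2 (0.62) and the matrix oxidase Loxl2 (1.13) were higher.

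Of 22 glycolysis genes 14 were higher in Ex5 and 2 lower (median 0.27). Slc16a3, the carrier that exports lactate, read 154, 144, 126 and 136 CPM in Ex5 and 52.5, 46.4, 46.2 and 73.5 CPM in Ex4 (log2 1.38 ± 0.11, adjusted p = 4.6e-05). Pfkp, a phosphofructokinase, read 22.0, 24.7, 18.6 and 20.9 CPM in Ex5 and 6.49, 6.57, 6.72 and 8.58 CPM in Ex4 (1.61 ± 0.10, adjusted p = 4.66e-07). Aldoc, an aldolase, read 44.5, 43.4, 39.6 and 40.0 CPM in Ex5 and 15.3, 16.9, 17.0 and 17.3 CPM in Ex4 (1.34 ± 0.07, adjusted p = 9.61e-08). All 3 were more than 2-fold higher, and Slc16a3 and Pfkp had their highest Ex4 value at 405 min. More abundant enzymes moved less. Pgk1 averaged 732 CPM in Ex5 and 510 CPM in Ex4 (0.52), Pfkl 441 CPM in Ex5 and 288 CPM in Ex4 (0.61), Tpi1 508 CPM in Ex5 and 368 CPM in Ex4 (0.47), Ldha 1920 CPM in Ex5 and 1450 CPM in Ex4 (0.41) and Aldoa 1340 CPM in Ex5 and 1050 CPM in Ex4 (0.36), while Pkm (0.12, adjusted p = 0.0792) and Eno1 (-0.004, 0.966) did not pass. Several of these, such as Gapdh, Pkm, Ldha and Eno1, have processed copies in the genome and their counts are uncertain, and how the authors' counting treated shared reads is not given in the sources used here.

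The 2 lower members were the main glucose transporters. Slc2a3 (GLUT3) read 590, 601, 584 and 598 CPM in Ex5 and 953, 951, 970 and 977 CPM in Ex4 (log2 -0.70 ± 0.04, adjusted p = 3.29e-07), and Slc2a1 (GLUT1) averaged 422 CPM in Ex5 and 637 CPM in Ex4 (-0.59, adjusted p = 8.7e-07). Every Slc2a3 value in Ex5 was under every value in Ex4. Both genes are known targets of the hypoxia response.

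**Figure D3:**
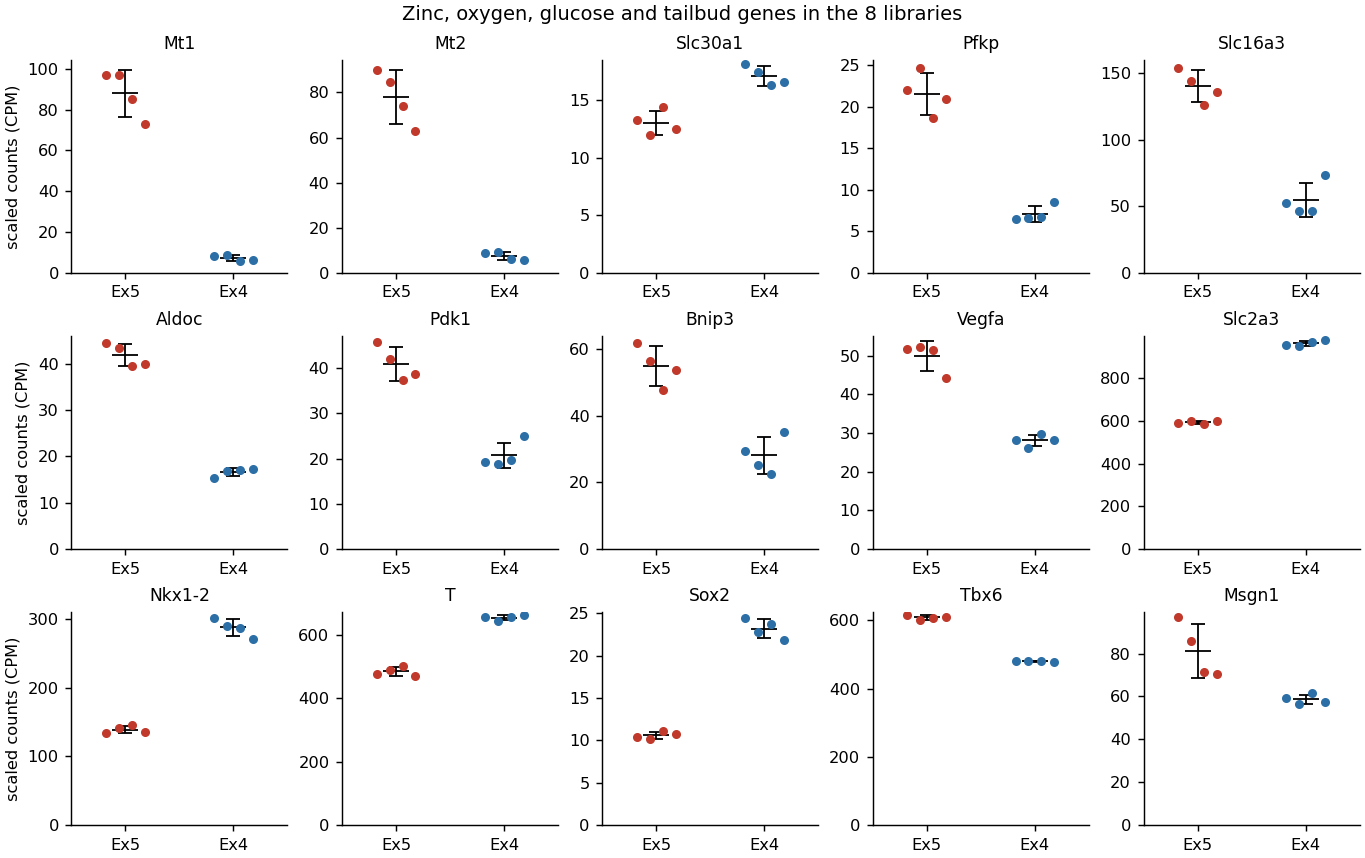
Scaled counts (CPM) of 15 genes in the 4 Ex5 libraries (red, left) and the 4 Ex4 libraries (blue, right), in order of minute within each group, with the mean and SD as bars. Mt1, Mt2 and the hypoxia and glycolysis genes lie higher in Ex5, whereas Slc30a1, Slc2a3, Nkx1-2, T and Sox2 lie lower.

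The promoters of the 3 glycolysis genes with the largest difference are shown with the core letters of the hypoxia response element, ACGTG or GCGTG on either strand, in capitals. They are chr13:6648722-6649021 on the minus strand for Pfkp, chr11:120948817-120949116 on the plus strand for Slc16a3 and chr11:78322823-78323122 on the plus strand for Aldoc, each in the direction of its gene. The annotation used for positions here starts Slc16a3 at 120948480, so by that start the whole Slc16a3 window lies inside the gene. ACGTG also lies within the E-box CACGTG, where it counts once on each strand.
Pfkp: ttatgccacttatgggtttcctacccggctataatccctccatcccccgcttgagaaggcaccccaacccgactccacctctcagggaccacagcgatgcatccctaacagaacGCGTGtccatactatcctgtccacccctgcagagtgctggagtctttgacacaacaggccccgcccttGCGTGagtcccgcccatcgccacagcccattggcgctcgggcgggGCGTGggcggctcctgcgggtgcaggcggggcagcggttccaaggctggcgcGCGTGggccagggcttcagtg
Slc16a3: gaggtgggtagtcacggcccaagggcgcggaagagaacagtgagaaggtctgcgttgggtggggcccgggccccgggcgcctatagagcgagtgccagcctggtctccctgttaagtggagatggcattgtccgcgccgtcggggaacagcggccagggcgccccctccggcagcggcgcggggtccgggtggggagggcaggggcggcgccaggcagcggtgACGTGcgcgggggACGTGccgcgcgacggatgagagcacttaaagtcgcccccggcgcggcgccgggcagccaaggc
Aldoc: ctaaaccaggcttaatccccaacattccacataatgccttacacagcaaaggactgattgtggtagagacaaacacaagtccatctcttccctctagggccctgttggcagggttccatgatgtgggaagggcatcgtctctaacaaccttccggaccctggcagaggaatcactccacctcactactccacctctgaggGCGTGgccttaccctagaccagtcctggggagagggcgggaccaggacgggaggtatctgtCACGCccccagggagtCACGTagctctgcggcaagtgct
These windows hold 4, 2 and 3 matches, of which 3, 2 and 1 lie wholly before the RefSeq start. Of all 32851 windows 43.8% hold at least 1 match and 8.93% hold 3 or more, so the letters are common. Of the other genes looked up, Bnip3 has 5 matches in its window, Pdk1 has 2 and Vegfa (chr17:46032328-46032627) has 0, and all 3 genes were higher in Ex5. The window of Slc2a1 (chr4:119108495-119108794), which was lower in Ex5, holds 2.

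Lipid, amino acid and protein folding genes were more often higher than lower in Ex5, by small amounts. Of 26 cholesterol and fatty acid genes 12 were higher and 0 lower (median 0.11), a count that ran from 5 without the 385 min pair to 22 without the 405 min pair. Over all genes the higher calls moved the same way, with 597 and 1915 under these settings, against 1320 in the main fit. Acly, which makes cytosolic acetyl-CoA, read 1400, 1420, 1360 and 1380 CPM in Ex5 and 1150, 1170, 1190 and 1120 CPM in Ex4 (log2 0.26 ± 0.04, adjusted p = 0.000914). Hmgcs1, an early enzyme of the mevalonate pathway, averaged 744 CPM in Ex5 and 622 CPM in Ex4 (0.26). Of 22 genes of the amino acid response 8 were higher and 1 lower, led by the glycoprotein gene Stc2 (23.5 CPM in Ex5 and 13.5 CPM in Ex4, 0.80 ± 0.07), whereas Atf4, the factor at the head of this response, did not pass (0.09, adjusted p = 0.142). The count of higher members was 4 without the 345 min pair. Of 18 unfolded protein and heat shock genes 6 were higher, led by the co-chaperone Bag3 (0.55) and the endoplasmic reticulum stress genes Xbp1 (0.41) and Manf (0.27), and 2 cytosolic chaperones, Hsph1 (-0.19) and Hsp90aa1 (-0.14), were lower. Of 16 antioxidant genes driven by NRF2 Gstm1 (0.35) and Ftl1 (0.20) were higher and Gclm (-0.20) lower, a share near that over all genes (22.9% called). Without the 345 min or the 385 min pair the calls of Ftl1 (adjusted p = 0.0779 and 0.105) and Gclm (0.0945 and 0.0981) were lost, and that of Gclm was lost with DESeq2 too (0.0987). Hmox1, which heavy metals and oxidants are known to induce strongly, read 21.0 CPM in Ex5 and 22.1 CPM in Ex4 (-0.07, adjusted p = 0.466).

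Of 17 tested p53 targets 10 were lower in Ex5 and 1 higher (median -0.26). Perp, a p53-induced membrane protein of epithelia, read 2.87, 3.07, 3.06 and 2.65 CPM in Ex5 and 10.1, 10.2, 9.83 and 9.84 CPM in Ex4 (log2 -1.78 ± 0.10, adjusted p = 3.11e-07). Trp53inp1 (43.2 CPM in Ex5 and 77.5 CPM in Ex4, -0.84), Plk2 (26.6 CPM in Ex5 and 47.6 CPM in Ex4, -0.84) and Pmaip1, or Noxa (16.2 CPM in Ex5 and 26.9 CPM in Ex4, -0.74), were lower. The cell cycle inhibitor Cdkn1a was a little lower (128 CPM in Ex5 and 151 CPM in Ex4, -0.23), and Mdm2, the ligase that p53 induces against itself, did not pass (-0.07, adjusted p = 0.306). The higher one was Bbc3, or Puma, which was higher (0.33). Trp53 itself did not pass (0.03, 0.654). Among 22 G1/S genes 1 was lower, E2f2 (-0.48), and 0 higher. Among 22 G2/M genes 7 were lower, by at most 0.24, and 0 higher, with 3 lower without the 345 min pair and 1 without the 385 min pair. Mki67 (305 CPM in Ex5 and 313 CPM in Ex4, -0.03, adjusted p = 0.825) and Top2a (833 CPM in Ex5 and 827 CPM in Ex4, 0.01, 0.883) did not pass.

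BMP and activin readouts that moved were lower in Ex5, in cells whose receptors for both were blocked in both courses. Of 8 BMP targets 3 were lower and 0 higher. Msx1, a homeobox target of BMP, read 7.73, 7.51, 6.46 and 5.70 CPM in Ex5 and 23.5, 21.5, 18 and 18.3 CPM in Ex4 (log2 -1.57 ± 0.08, adjusted p = 9.15e-08), and Id3 read 24.9 CPM in Ex5 and 44.2 CPM in Ex4 (-0.83). The inhibitory Smad genes Smad6 (0.25, adjusted p = 0.0735) and Smad7 (0.49, 0.0576) did not pass. Fst, which encodes the activin antagonist follistatin, read 16.9, 14.8, 17.9 and 13.0 CPM in Ex5 and 48.7, 43.5, 45.4 and 39.6 CPM in Ex4 (-1.50 ± 0.06, adjusted p = 2.02e-08). Of 4 tested TGF-β and Nodal genes 2 were lower, Fst among them.

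In the retinoic acid list 4 of 9 were higher and 2 lower. Crabp1, which binds retinoic acid in the cytosol, read 152, 157, 150 and 158 CPM in Ex5 and 75.9, 88.9, 74.7 and 69.6 CPM in Ex4 (log2 1.00 ± 0.05, adjusted p = 1.86e-07), and Crabp2 was higher too (0.33), while the receptor Rarg was lower (-0.23). Of 9 YAP targets 3 were lower, Axl (-1.16), Cyr61 (-0.97) and Ptpn14 (-0.38), and 0 higher. The matrix and adhesion list split into 8 higher and 9 lower of 26, with basement membrane collagen Col4a1 (169 CPM in Ex5 and 128 CPM in Ex4, 0.41), Col4a2 (0.40) and fibronectin, Fn1 (0.30), higher and Sparc (-0.87), Col18a1 (-0.71), Itga6 (-0.68) and Lama5 (-0.51) lower. Among anterior PSM and somite genes Foxc2 (6.13 CPM in Ex5 and 2.56 CPM in Ex4, 1.24) and Foxc1 (72.7 CPM in Ex5 and 46.9 CPM in Ex4, 0.63), forkhead factors of paraxial mesoderm, were higher and Pax3 (0.662 CPM in Ex5 and 1.71 CPM in Ex4, -1.33) was lower, of 6 tested. Pax3 was under 1 CPM in every Ex5 library and was tested only through its Ex4 values. Of 6 interferon genes 1 was higher, Bst2 (0.60), and 1 lower. Of 5 lateral, intermediate and vascular mesoderm genes 3 were lower (Kdr -1.14, Pax2 -1.13 and Bmp4 -0.77, all at low levels) and Lhx1 was higher (0.50). Kdr, like Pax3, was tested only through its Ex4 values. Of 3 endoderm genes Cldn6 was lower (-1.09), of 3 histone genes Hist1h4i (-0.51), and of 5 fibroblast and blood genes Pdgfra was lower (-0.24) and Acta2, smooth muscle actin, higher (0.53). The Hist1h4i call was lost with DESeq2 (adjusted p = 0.203), with Ex5 taken 20 min later (0.205), without the block (0.0676) and without the 345, 385 or 405 min pair (0.113 to 0.163). The Pdgfra call was lost without the 385 min pair (0.0707).

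Of 8 tested genes of the mitochondrial genome 4 were lower in Ex5 and 0 higher, with the Ex4 library of 405 min far above the rest. mt-Cytb read 784, 669, 636 and 694 CPM in Ex5 and 934, 914, 996 and 1580 CPM in Ex4 (log2 -0.63 ± 0.15, adjusted p = 0.0358). Without the 405 min pair the mt-Cytb difference was -0.45 (adjusted p = 0.01), and 7 of the 8 genes were lower. Without the 365 min pair the mt-Cytb call was lost (-0.69, 0.129) and 1 of the 8 was lower. The mt-Cytb call was also lost with DESeq2 (adjusted p = 0.068), with no filter (0.148), with the minute as a linear term (0.0624), with the GC and length correction (0.0733) and after thinning (0.0622). These transcripts were measured in libraries selected for polyadenylated RNA, and the part that RNA quality or library making plays in their level was not tested.

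**Figure D4:**
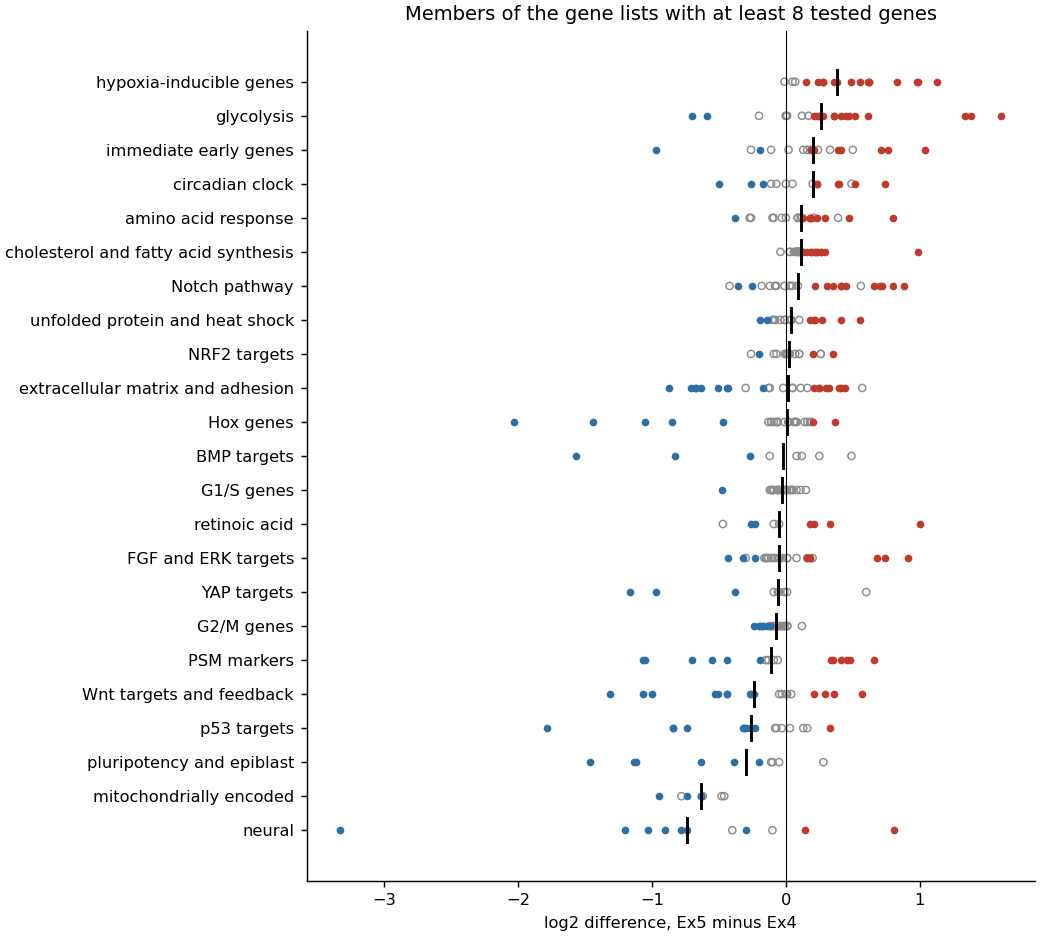
Log2 difference, Ex5 minus Ex4, of each member of the lists with at least 8 tested genes, sorted by the list's median (black bar). Filled red and blue points passed the test as higher and lower in Ex5, and open points did not. The hypoxia list lies highest and the neural list lowest, with medians of 0.38 and -0.74.

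Outside the lists, the genes with the largest differences at 5 CPM or more were of mixed function. Higher in Ex5 were Adssl1, a muscle-type enzyme of AMP synthesis (9.72, 9.51, 9.47 and 9.15 CPM in Ex5 and 3.84, 4.06, 3.31 and 3.34 CPM in Ex4, log2 1.37 ± 0.10), the phosphoglucomutase gene Pgm1 (37 CPM in Ex5 and 17.7 CPM in Ex4, 1.06), the protease inhibitor gene Serpinb6b (1.15) and the scavenger receptor gene Scara3 (1.15). Lower in Ex5 was Epha5, a receptor for ephrins, at 9.53, 11.3, 9.98 and 11.6 CPM in Ex5 and 33.9, 31.2, 34.0 and 33.9 CPM in Ex4 (-1.65 ± 0.08, adjusted p = 4.22e-08). The guidance factor Sema3e (15.5, 14.0, 14.5 and 18.1 CPM in Ex5 and 41.4, 35.6, 41.4 and 39.9 CPM in Ex4, -1.35 ± 0.07) was lower too. So were the receptor genes Gprc5a (-1.40) and Rxrg (-1.35), the channel family gene Ano3 (-1.39), the neuronal pentraxin Nptx1 (-1.33), the transcription factor Sp6 (-1.25) and Svop (-1.19). None of these groups overlapped.

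Whether genes moved differently within the hour was asked with a difference in slope between the courses. No gene passed (0 of 11754, 0%), the smallest adjusted p was 0.103, and 1644 genes lay at an unadjusted p under 0.05. DESeq2 called 10 genes with a more positive and 9 with a more negative slope in Ex5, and limma-voom called 0. For Hes7 the slope was 0.75 ± 0.34 (log2 per 60 min) more positive in Ex5 (adjusted p = 0.432), for the luciferase transcript 0.63 ± 0.18 (0.144) and for Per1 0.52 ± 0.17 (0.192), and for Msgn1 it was -0.50 ± 0.12 (0.103). With 4 minutes a course these values do not show that the slopes were alike. Leaving out the Ex4 library of 345 min gave 337 genes with a more positive and 556 with a more negative slope in Ex5, and leaving out that of 385 min gave 48 and 98.

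The same contrast was then read in the earlier dishes of the same courses, 11 Ex5 libraries from 165 to 325 min and 12 Ex4 libraries from 155 to 327 min, none of which enters the late comparison. There 3225 genes were higher in Ex5 (27.4%) and 2987 lower (25.4%). Of the 1320 genes higher in the late window 1057 were also called higher earlier and 13 lower, and of the 1366 lower ones 1051 were called lower earlier and 24 higher. Of the 140 late genes past 2-fold, 132 were called earlier with the same sign. Across the 11754 genes the late and the earlier differences had a Spearman correlation of 0.64, where genes are not independent and all dishes share their 2 culture runs. The earlier difference was 3.28 for Mt1, 3.03 for Mt2, 1.67 for Slc16a3, -1.18 for Nkx1-2, -1.16 for Sox2 and -1.57 for Hoxa7. Clock transcripts were mixed. Of them Hes7 (0.17), Lfng (0.16) and Per1 (0.07) did not pass earlier (adjusted p = 0.195, 0.404 and 0.581, same test). The changes between the earlier and the late difference of these 3 did not pass (adjusted p = 0.12, 0.137 and 0.129). Luciferase mRNA (0.48, adjusted p = 0.00015) and Nrarp (0.39, 1.66e-07) were already higher in Ex5 earlier, while Hes5 (0.15, 0.438) and Hes1 (-0.32, 0.1) did not pass.

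The late calls were also read by how each gene had moved with time in the earlier dishes. A gene entered if its common slope passed edgeR's quasi-likelihood test (adjusted p under 0.05) and was at least 0.2 (log2 per 100 min) either way. Of 558 genes that gained by this rule, 178 were higher in Ex5 late (31.9%, against 11.2% of all genes) and 43 lower (7.71%, against 11.6%). Of 1000 genes that lost by the same rule, 59 were higher (5.9%) and 288 lower (28.8%). Taking each Ex5 library 20 min later, at 365 to 425 min, left 1144 genes higher and 1079 lower, 2031 of them among the 2686 calls. Under that shift the Hes7 difference was 0.54 (adjusted p = 2.59e-05) and that of Lfng 0.60 (2.55e-05), and Hes1 still did not pass (0.21, 0.383).

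A test of the late difference against the earlier one found 189 genes with a more positive difference late (1.61%) and 310 with a more negative one (2.64%). Of these 499 genes 235 also differed in the late window itself, 199 with a change in the direction of the late difference and 36 with a change against it, and 264 did not pass late. Dkk1 showed the largest swing among clock and Wnt genes, -1.31 late and 0.46 earlier, with a change of -1.66 ± 0.33 (adjusted p = 0.00481). The late value, the earlier value and the change come from separate fits, so the change need not equal the difference of the other values. Nrarp was 0.39 ± 0.11 further apart late (adjusted p = 0.0421). Msgn1 was less far apart late (0.46) than earlier (0.94), and T was further below Ex4 late (-0.44) than earlier (-0.14). Among the genes with the largest changes at 5 CPM or more, Sost, a secreted Wnt inhibitor, was 0.36 late and -0.55 earlier, Rasgrp3, an activator of Ras, 0.82 late and -0.001 earlier, and Morc4 -0.48 late and -1.13 earlier. On the other side stood Slc46a3 (-0.18 late and 0.81 earlier), Dennd2c (-0.68 late and 0.11 earlier), Soga3 (-0.55 late and 0.21 earlier), Adamts17 (-0.56 late and 0.24 earlier) and the kinase Sgk1 (-0.69 late and 0.05 earlier). Without the 385 min pair 37 genes were more positive and 60 more negative, without the 365 min pair 110 and 196, and without the 405 min pair 84 and 185. When the earlier difference was allowed to drift linearly in time, 5 and 2 genes passed, and 0 of these 7 were among the 499, so these changes cannot be told apart from a steady drift between the courses.

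**Figure D5:**
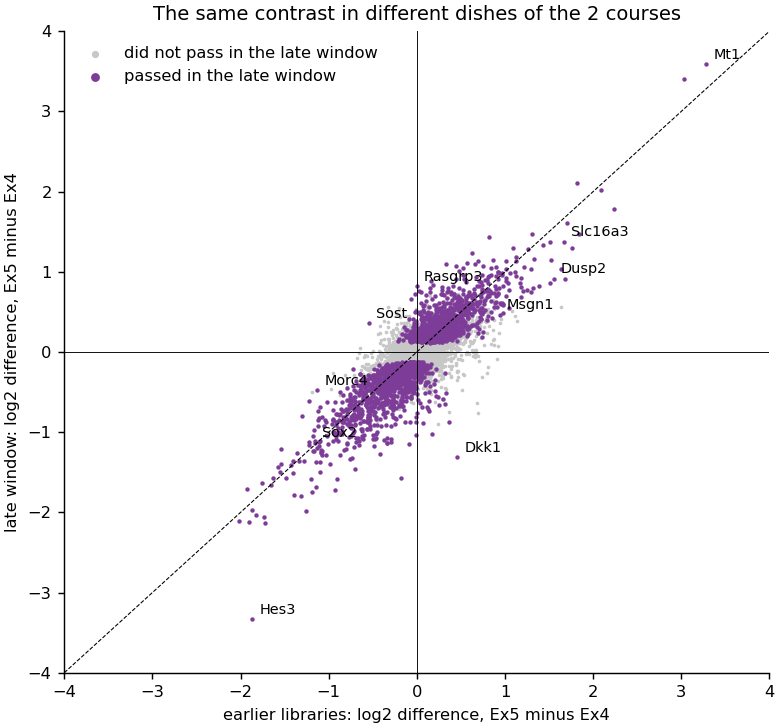
Log2 difference, Ex5 minus Ex4, of each tested gene in the earlier libraries (horizontal) and in the late window (vertical), with genes that passed late in purple and the line of equal difference dashed. Mt1 lies near the line at 3.28 and 3.59, while Dkk1 lies far under it at 0.46 and -1.31.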

How the data were processed

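Bulk RNA was sequenced from frozen dishes with a stranded mRNA kit from 200 ng total RNA, per the labels' protocols. The authors deposited raw read counts per gene. HISAT2 2.1.0, HTSeq 0.6.1, cutadapt 1.14, bcl2fastq 2.17.1.14 and the build mm10 are named without roles, per the submitters' processing notes. Which annotation was counted, and whether by strand, is not given in the sources used here, and exons of 42 of the 135 named genes overlap another gene.

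Of 21886 genes, the 11754 that reached 1 CPM in 4 or more of the 8 libraries were tested. edgeR 4.0.16 in R 4.3.3 fitted the quasi-likelihood model with TMM factors, course and minute as a block, leaving 3 residual degrees of freedom. The courses were paired by the minute in the labels, since titles number the time points differently. The slope fit had course, minute and their product. The fit over 31 libraries had a natural spline of minute with 4 df, course and course by late window, and the Ex5 library of 425 min entered only the fit that takes Ex5 20 min later. The earlier comparison used 23 libraries. DESeq2 1.42.0 and limma-voom 3.58.1 were alternatives, as were other scalings, filters, GC and length correction, thinning and leaving out each minute. The tests of the late difference, of the slope difference and of the late minus earlier difference were run on simulated counts, with outcomes not given here. The other steps were not simulated.

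Named genes are the 12 highest and 12 lowest differences at 5 CPM or more with 1 sign at all 4 minutes, up to 4 called members of each of 32 lists by size, a set of clock and PSM genes, and the 5 largest late minus earlier differences in each direction. Other list members are given by value, and exceptions are marked. Some genes that this rule names are not reported here. Members and lists were chosen with earlier results of these data known. Positions come from GENCODE M21 on GRCm38, which holds 133 of the 135 named genes.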

Additional observations from a re-analysis of the deposited data

Results flagged for a closer look

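Among named genes, a single library stood apart from the other 3 of its course in the following cases, by a gap that took up more of the range of the 4 log2 values than Dixon's critical value for 4 samples allows. Chance singles out about 1 in 20 groups of 4 in this way, and 135 genes in 2 courses were examined. In Ex5 at 345 min Pou5f1 was highest at 30.8 CPM and Bmp4 at 2.68 CPM. In Ex5 at 365 min Kif20a was highest at 327 CPM. In Ex5 at 405 min Crabp2 was highest at 506 CPM, and Snai1 and Vegfa were lowest at 76.5 and 44.2 CPM. In Ex4 at 345 min Rdh10 was highest at 12.1 CPM, and in Ex4 at 365 min Epha5 was lowest at 31.2 CPM. The Ex4 library of 405 min had the most such values. There mt-Cytb was highest at 1580 CPM, Trp53inp1 at 89.3 CPM, Pdk1 at 24.9 CPM and Pfkp at 8.58 CPM, while Kif20a was lowest at 353 CPM, Id3 at 41.4 CPM and Atf5 at 22.1 CPM.

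Other named genes were singled out because their difference between the courses changed between the earlier and the late dishes (edgeR quasi-likelihood test, adjusted p under 0.05), given here as the late minus the earlier log2 difference. More positive late were Sost (0.81), Rasgrp3 (0.76), Foxc2 (0.65), Morc4 (0.62), Cntln (0.56), Irx3 (0.55), Nrarp (0.39) and Nkd2 (0.29). More negative late were Dkk1 (-1.66), Hes3 (-1.43), Slc46a3 (-0.89), Tfcp2l1 (-0.78), Dennd2c (-0.76), Pax2 (-0.73), Soga3 (-0.72), Adamts17 (-0.71), Sgk1 (-0.65), Cldn6 (-0.56), Svop (-0.47), Msgn1 (-0.43), T (-0.27), Cdh1 (-0.26), Slc2a3 (-0.24) and Hmgcs1 (-0.21). Of 10 of these genes that were refitted without single minutes, 5 lost the call without at least 1 of them. Cntln lost it without any 1 of the 4 pairs (adjusted p = 0.0648 to 0.121), and Dennd2c without the 365, 385 or 405 min pair (0.0669 to 0.102). Irx3 (0.0523), Sgk1 (0.0533) and Sost (0.0526) lost it without the 385 min pair.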

How the results depend on the processing

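No named gene that passed the late comparison changed sign under any alternative run, and 14 named calls or fewer were lost under each. DESeq2 called 812 genes higher and 781 lower in Ex5, and library sizes without scaling factors gave 1078 and 1673, a shift in the split. Without the minute as a block the counts were 1410 and 1485, with 2594 calls shared, and Lfng (adjusted p = 0.0822) and Hes5 (0.0721) lost their calls. Libraries of the same minute did not deviate together (correlations of 0.0512, -0.0272, 0.03 and -0.0433). Leaving out a minute gave 597 to 1915 higher and 694 to 1800 lower genes. For the slope, DESeq2 gave 10 and 9, no filter 98 and 232, and leaving out 1 library 0 to 337 and 0 to 556. For the late minus earlier difference, leaving out a minute gave 37 to 181 and 60 to 248, and a linear earlier difference gave 5 and 2, with Cntln at -0.05 and Slc46a3 at 0.02. The causes were not tested. With 1 culture run a course, differences between runs and differences between courses cannot be told apart.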

Other observations

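Imprinted genes, which are expressed from 1 parental copy and can drift in cultured stem cells, were looked at after their values were seen, so they are given with no test. Of 16 read, 4 were in the called set as higher in Ex5, 3 as lower and 9 were not, beside 11.2% higher and 11.6% lower of all tested genes. Since the genes were chosen after their values were seen, this count is no result about imprinted genes. Peg10, a retrotransposon-derived gene of the placenta, read 67.3, 67.5, 58.3 and 55.6 CPM in Ex5 and 142, 132, 144 and 144 CPM in Ex4 (log2 -1.18 ± 0.06), with -1.11 in the earlier dishes. Its groups lay far apart, whereas its imprinted neighbour Sgce read 25.9, 24.8, 22.5 and 24.4 CPM in Ex5 and 25.6, 27.8, 24.8 and 25.6 CPM in Ex4 (-0.09 ± 0.06). Mest read 107, 106, 99.2 and 102 CPM in Ex5 and 156, 155, 158 and 157 CPM in Ex4 (-0.59 ± 0.04). On the other side, Phlda2, a brake on placental growth, read 97.3, 101, 95.8 and 74.6 CPM in Ex5 and 60.6, 59.5, 52.2 and 47.5 CPM in Ex4 (0.74 ± 0.05), and the cell cycle inhibitor Cdkn1c averaged 39.4 CPM in Ex5 and 27.1 CPM in Ex4 (0.54 ± 0.06). Igf2 (0.03) and Snrpn (0.04) were among the 9.

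The messengers of the oxygen-regulated factors were read in the same way. Hif1a had 225, 221, 212 and 212 CPM in Ex5 and 217, 214, 212 and 243 CPM in Ex4 (-0.03 ± 0.05), and Epas1 averaged 2.88 CPM in both courses (-0.01 ± 0.17). The groups of both overlapped. HIF proteins are known to be controlled mainly by their stability, and no protein was measured.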
